A study of Mus musculus with 16 samples.

Results

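The odorant receptor genes of mouse chromosome 9 were examined in sorted olfactory cells after exposure to an odorant. They were taken as every probe set placed on chromosome 9 by its identifier whose symbol was Olfr followed by a number, with names ending in -ps and the gene Olfr77 left out. This gave 128 genes with 1 probe set each, out of 1080 receptors and 19572 tested probe sets on the array. All 128 were matched by Entrez identifier to chromosome 9 in RefSeq. They carried names of 29 MOR families, the older sequence-based grouping of mouse receptors, and 9 of these families had 5 or more members here.

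The study used S100a5-tauGFP mice, in which the fluorescent protein tauGFP is tied to S100a5, a gene that sensory neurons switch on with activity. Every group carried this allele. Per the labels, 24 animals of both sexes aged 7 to 12 weeks sat one by one in chambers for 40 h in clean air flowing at 3.1 L/min. From 26 h onward they received pulses of 10 s every 20 min, either of the straight-chain ketone 2-octanone or of filtered air, which served as vehicle. The olfactory mucosa was dissociated in pools of 3 mice and sorted into GFP+ and GFP- cells, giving 4 pools for each exposure and 16 Clariom S arrays, 4 in each of the groups 2-octanone GFP+, 2-octanone GFP-, vehicle GFP+ and vehicle GFP-. GFP+ cells after 2-octanone against GFP+ cells after vehicle addresses which receptors the odorant's neurons express, and GFP+ against GFP- cells addresses which receptors the labelled neurons express in either condition.

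Odorant receptors are G protein-coupled receptors in the cilia of olfactory sensory neurons. Each mature neuron expresses a single receptor allele out of the whole repertoire, chosen with the help of enhancers, the transcription factors Lhx2 and Ebf, and a tightly packed nuclear compartment that holds the silent receptor genes. An odorant opens a cyclic nucleotide-gated channel through the G protein subunit Gnal and the cyclase Adcy3, and neurons kept active raise S100a5. The level of a receptor's mRNA in bulk tissue therefore reads both how many neurons express it and how much RNA each holds, and in these bulk samples fewer cells of a type and less RNA per cell cannot be told apart.

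The arrays' medians over the tested probe sets lay between 7.64 and 8.01 on the log2 scale. Mature neuron genes other than Cngb1 were high in both fractions. The mean of the list of 12 was 16.24 to 16.50 on GFP+ arrays and 15.68 to 16.24 on GFP- arrays. Cngb1 had group means between 6.73 and 7.35. Of the 12, 5 were called higher in GFP+ cells and 0 lower. S100a5 itself was higher in GFP+ than in GFP- cells in all 8 pools. The replicate 4 pools stood apart, with 13.11 to 13.92 on their 4 arrays against 15.45 to 16.98 on the other 12. Over all pools the sort difference of S100a5 was 0.83 (SE 0.60, limma adjusted p = 0.304). This fit does not pair the fractions of a pool, so the low level shared by both fractions of replicate 4 widens that SE. The p-value therefore does not weigh the single direction seen in all 8 pools. Each of 8 neutrophil genes was called lower in the GFP+ fraction (mean level of the list 6.86 to 8.67 in vehicle GFP+, 15.22 to 16.12 in vehicle GFP-, 7.26 to 13.17 in 2-octanone GFP+ and 15.08 to 16.46 in 2-octanone GFP-). The 2-octanone GFP+ arrays of replicates 3 and 4 had the highest neutrophil levels of the GFP+ arrays, 10.22 and 13.17. Of 6 immature neuron genes 5 were lower in GFP+ cells and none higher, with list means of 9.39 to 9.85 on GFP+ arrays and 11.10 to 12.51 on GFP- arrays. Of all tested probe sets, 14.0% were called lower in GFP+ cells. The part of these cells in the receptor differences was not tested. The main counts of the sort and of 2-octanone are also given without both replicate 4 pools.

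The DNA around the starts of 2 pairs of genes is printed first, because their windows are much alike while the genes went opposite ways in the sort. Each line is a RefSeq window (GRCm38.p6) of 300 bases, 250 before and 50 after the annotated start, read 5′ to 3′ on the gene's strand, with bases that differ from the partner or are inserted relative to it in capitals. Olfr968 lies on the minus strand at chr9:39772749-39773048 and Olfr972 on the plus strand at chr9:39873027-39873326. The windows of this pair differed by 35 edits (88.6% identity) and their last 50 bases were the same.
Olfr968: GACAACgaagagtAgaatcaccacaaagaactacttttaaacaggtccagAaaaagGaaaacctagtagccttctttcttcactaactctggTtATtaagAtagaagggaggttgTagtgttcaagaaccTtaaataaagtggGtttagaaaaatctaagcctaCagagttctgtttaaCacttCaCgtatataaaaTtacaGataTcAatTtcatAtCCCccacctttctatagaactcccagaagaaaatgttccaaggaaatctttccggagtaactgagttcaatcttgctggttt
Olfr972: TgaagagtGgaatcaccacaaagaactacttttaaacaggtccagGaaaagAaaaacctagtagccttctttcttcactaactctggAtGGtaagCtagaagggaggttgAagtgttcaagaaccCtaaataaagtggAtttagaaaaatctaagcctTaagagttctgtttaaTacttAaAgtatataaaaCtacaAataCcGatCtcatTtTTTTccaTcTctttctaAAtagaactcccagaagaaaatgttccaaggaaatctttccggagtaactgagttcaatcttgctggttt
Olfr969 and Olfr970 are direct neighbours on the plus strand, at chr9:39795127-39795426 and chr9:39819391-39819690, with windows that differed by 68 edits (78.5% identity).
Olfr969: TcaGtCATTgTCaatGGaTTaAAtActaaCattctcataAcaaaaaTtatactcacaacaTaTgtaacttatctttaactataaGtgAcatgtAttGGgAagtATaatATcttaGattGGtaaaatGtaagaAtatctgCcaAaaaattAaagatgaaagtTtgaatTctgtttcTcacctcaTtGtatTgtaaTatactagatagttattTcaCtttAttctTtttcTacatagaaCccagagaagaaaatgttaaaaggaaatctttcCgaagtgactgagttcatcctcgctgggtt
Olfr970: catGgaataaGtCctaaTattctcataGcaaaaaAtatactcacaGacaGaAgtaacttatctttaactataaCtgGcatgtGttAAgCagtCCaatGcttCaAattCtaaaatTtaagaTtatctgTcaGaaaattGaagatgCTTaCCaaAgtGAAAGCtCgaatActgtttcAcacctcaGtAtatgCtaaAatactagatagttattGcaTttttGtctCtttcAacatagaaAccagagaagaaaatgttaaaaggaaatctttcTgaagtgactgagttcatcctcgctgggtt
In many receptor genes the annotated start is that of the coding part: 68 of 108 windows of these genes read ATG at the start, so such windows hold sequence next to the coding start and need not hold the transcription start.

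In the order of the chromosome these 4 genes and Olfr971 between them run Olfr968, Olfr969, Olfr970, Olfr971, Olfr972, all of family MOR171. Going along them, the sort difference (GFP+ minus GFP-, both exposures, log2) was 1.39, -4.52, 2.64, 1.29 and -4.95, so the direction changed at 3 of 4 steps. In vehicle replicates 1 to 4 the log2 signal of Olfr972 was 7.84, 9.03, 7.75 and 8.92 in GFP+ and 13.99, 13.56, 13.95 and 13.61 in GFP- cells. The 2-octanone pools gave 7.89, 9.06, 9.39 and 9.92 in GFP+ and 13.43, 13.79, 14.09 and 13.00 in GFP- cells. The highest GFP+ array lay below the lowest GFP- array by over 3 log2 units, and the fit gave -4.95 (SE 0.27; limma adjusted p = 1.09e-09), or 31-fold lower in GFP+ cells. The vehicle pools gave Olfr968 a signal of 13.10, 13.06, 13.30 and 12.92 in GFP+ and 12.30, 11.94, 11.78 and 10.91 in GFP- cells. With 2-octanone the values were 12.35, 13.22, 13.16 and 12.67 in GFP+ and 11.85, 11.12, 11.58 and 11.20 in GFP- cells. Here every GFP+ array lay above every GFP- array, with a difference of 1.39 (SE 0.19; limma adjusted p = 2e-05). For Olfr969 the GFP+ values were 8.60, 9.23, 8.57 and 7.62 after vehicle and 6.41, 9.31, 8.26 and 8.95 after 2-octanone, replicates 1 to 4. Its GFP- values were 12.46, 12.31, 13.09 and 13.27 after vehicle and 12.54, 13.35, 13.19 and 12.90 after 2-octanone. All GFP+ arrays of Olfr969 lay below all its GFP- arrays. GFP+ cells had Olfr970 at 10.72, 10.82, 10.38 and 9.41 after vehicle and 11.45, 10.88, 10.68 and 9.17 after 2-octanone. In GFP- cells it stood at 8.64, 8.43, 8.39 and 6.79 after vehicle and 8.30, 7.21, 7.92 and 6.70 after 2-octanone. The 2 neighbours moved apart without overlap between the fractions, Olfr969 by -4.52 (SE 0.34) and Olfr970 by 2.64 (SE 0.35). Whether a probe set also takes signal from a close relative was not tested. Such shared signal is uncertain for genes as alike as these.

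**Figure D1:**
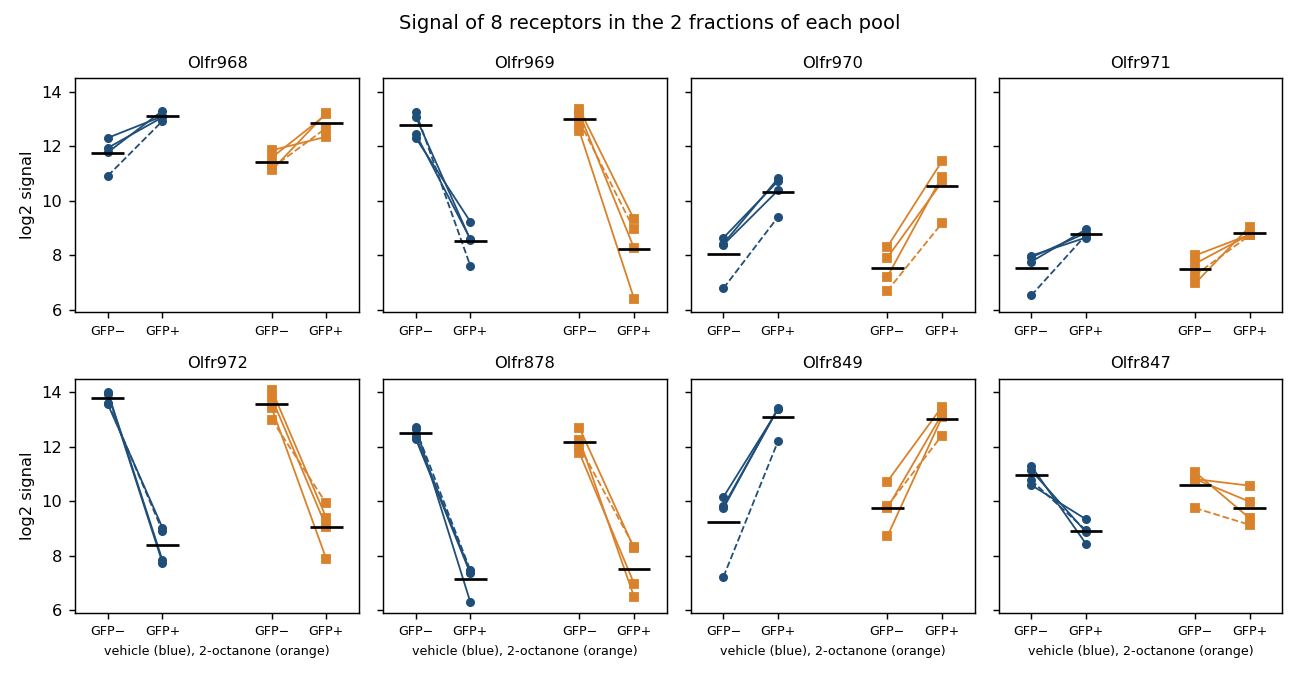
Log2 signal (vertical axis) of 8 receptors in the GFP- and GFP+ fraction of each pool, with 1 line per pool joining its 2 fractions, vehicle in blue circles and 2-octanone in orange squares, replicate 4 dashed, and black bars for the mean of the 4 pools. Olfr969, Olfr972 and Olfr878 fall from GFP- to GFP+ in all 8 pools, Olfr968, Olfr970, Olfr971 and Olfr849 rise in all 8, and in Olfr847, which falls in all 8, the slopes of the exposures overlap.

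Most of the 128 genes differed between the fractions, and more were higher in GFP+ cells than lower. By limma at an adjusted p under 0.05 over all 19572 probe sets, 74 were higher, 28 lower and 26 were not called. That is 79.7% called, against 30.7% of all tested probe sets (16.7% higher and 14.0% lower) and 69.5% of the 951 receptors elsewhere, of which 410 were higher, 251 lower and 290 not called. The median difference was 0.84 over the 128 genes, 0.35 over the other receptors and 0.13 over all tested probe sets. Differences ran from -5.02 to 3.57, and 18 genes were called higher and 14 lower by over 4-fold (0.782% and 3.60% of all tested probe sets). Without both replicate 4 pools 70 were higher and 30 lower, and the median was 0.68. Centring each array on its own median moved the median of all tested probe sets from 0.13 to 0.41 and the share of them called from 30.7% to 77.4%, of which 86.4% were higher in place of 54.4%. The 128 genes then had 81 higher and 27 lower (84.4% called) and a median of 1.12, so the share called stood close to that of all probe sets under this scaling and far above it under the deposited one. No called gene changed its direction with it. These p-values rest on the spread of arrays within the 4 groups and do not pair the fractions of a pool. With the pool as a block 75 of the 128 were higher and 29 lower.

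Most of these differences recurred from pool to pool. In 85 genes the GFP+ minus GFP- difference had a single sign in all 8 pools, positive in 60 and negative in 25 (13.5% and 12.2% of all tested probe sets), and all 85 were among the called genes. Over the 6 pools other than replicate 4 a single sign was found in 61 genes upward and 31 downward. In 38 genes every GFP+ array was above every GFP- array and in 18 every one was below (3.18% and 8.25%), and without both replicate 4 pools in 50 and 24. Both criteria are easier to meet with 6 pools than with 8. The shares of all tested probe sets were not computed for 6 pools, so these counts do not show a clearer separation without replicate 4. The median within-pool difference was 0.62, 0.68, 0.69 and 1.22 in vehicle replicates 1 to 4 and 0.21, 1.03, 0.66 and 0.97 in 2-octanone replicates 1 to 4. It was positive in every pool, lowest in 2-octanone replicate 1 and highest in vehicle replicate 4.

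Each exposure taken alone also gave more genes higher than lower. After vehicle 58 genes were higher and 26 lower (18.6% of all tested probe sets called, 7.54% higher and 11.0% lower), with a median of 0.89. After 2-octanone 52 were higher and 21 lower (15.1% of all called, 5.29% higher and 9.8% lower), with a median of 0.78, and without 2-octanone replicate 2 the split was 33 higher and 20 lower. Called after both were 66 genes, 46 higher and 20 lower, every one in the same direction both times (12.2% of all tested probe sets were called after both). Without both replicate 4 pools the split was 56 higher and 26 lower after vehicle and 55 higher and 24 lower after 2-octanone, with 49 and 22 called after both. The exposures used different mice, and genes called after only one of them were not tested for a difference here other than by the ratio test given at the end.

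**Figure D2:**
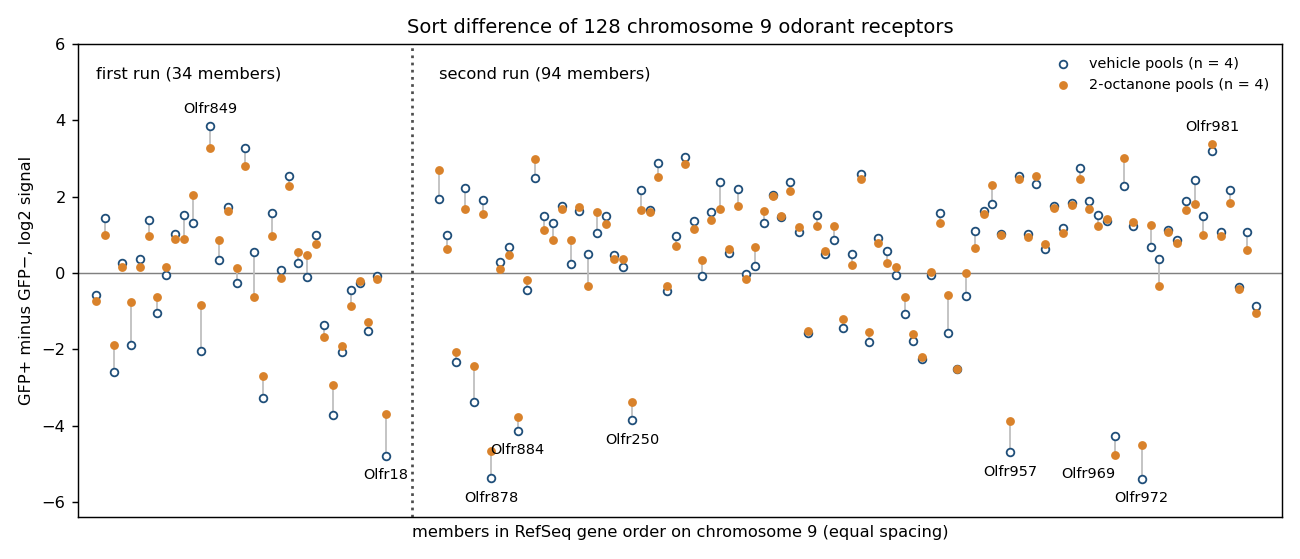
GFP+ minus GFP- difference in log2 signal (vertical axis) of each of the 128 receptors, placed at equal spacing in RefSeq gene order along chromosome 9 (horizontal axis). Open blue circles are vehicle pools (n = 4), filled orange circles 2-octanone pools (n = 4), and the dotted line parts the runs of 34 and 94 genes; values range from -5.40 to 3.86 after vehicle and from -4.76 to 3.39 after 2-octanone, and strongly lower genes stand among higher ones.

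The 8 largest differences in each direction were named by rule. Highest in GFP+ cells over GFP- cells was Olfr849, in the first run along the chromosome. Olfr849 read 13.39, 13.37, 13.43 and 12.21 in GFP+ and 9.82, 10.16, 9.75 and 7.23 in GFP- cells of vehicle replicates 1 to 4. After 2-octanone it read 13.46, 13.07, 13.19 and 12.41 in GFP+ and 10.72, 8.71, 9.75 and 9.82 in GFP- cells. Replicate 4 of vehicle was the lowest array of both its groups, and the fractions of that pool differed by 4.97, more than those of the other vehicle pools. The difference was 3.57 (SE 0.38; limma adjusted p = 1.5e-06), 11.9-fold, and 3.50 without both replicate 4 pools. Next came Olfr981 of family MOR223. In vehicle replicates 1 to 4 the log2 signal of Olfr981 was 10.38, 10.07, 10.49 and 8.42 in GFP+ and 7.22, 7.24, 6.01 and 6.08 in GFP- cells. The 2-octanone pools gave 11.42, 10.67, 10.01 and 8.79 in GFP+ and 8.04, 6.31, 6.40 and 6.58 in GFP- cells. The fractions did not overlap, with a difference of 3.30 (SE 0.40), although replicate 4 was low among the GFP+ arrays of both exposures. The vehicle pools gave Olfr854 a signal of 10.14, 10.12, 10.15 and 8.60 in GFP+ and 7.38, 6.98, 6.61 and 4.95 in GFP- cells. With 2-octanone the values were 9.62, 9.97, 9.14 and 8.28 in GFP+ and 6.96, 6.65, 5.93 and 6.22 in GFP- cells. Olfr854 followed with 3.04 (SE 0.34), again with the 8 GFP+ arrays above the 8 GFP- arrays. The other 5 were Olfr905, Olfr887, Olfr901, Olfr970 and Olfr965, with differences of 2.95, 2.74, 2.69, 2.64 and 2.61 and SEs of 0.25 to 0.35.

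The genes lowest in GFP+ cells differed by more than those highest. For Olfr878 the GFP+ values were 7.36, 7.42, 6.31 and 7.48 after vehicle and 6.98, 6.50, 8.28 and 8.33 after 2-octanone, replicates 1 to 4. Its GFP- values were 12.30, 12.40, 12.73 and 12.65 after vehicle and 11.77, 12.26, 12.69 and 12.01 after 2-octanone. Olfr878 differed by -5.02 (SE 0.26; limma adjusted p = 7.6e-10), or 32.5-fold, and all its GFP+ arrays lay over 3 log2 units under its GFP- arrays. After Olfr878 and Olfr972 came Olfr969, Olfr957, Olfr18, Olfr884, Olfr250 and Olfr869. GFP+ cells had Olfr957 at 5.18, 6.01, 5.63 and 5.22 after vehicle and 5.56, 5.38, 6.52 and 7.35 after 2-octanone. In GFP- cells it stood at 10.01, 10.01, 10.23 and 10.56 after vehicle and 9.85, 10.18, 10.93 and 9.37 after 2-octanone. Olfr957 differed by -4.29 (SE 0.27; limma adjusted p = 4.14e-09). Its GFP+ signal was not above the array's background in vehicle replicates 1 and 4 and in 2-octanone replicate 2, so the size of this difference is uncertain. Olfr884 read 6.39, 6.67, 6.95 and 6.98 in GFP+ and 10.45, 10.81, 11.00 and 11.29 in GFP- cells of vehicle replicates 1 to 4. After 2-octanone it read 6.41, 6.41, 7.39 and 7.54 in GFP+ and 11.03, 10.52, 10.89 and 10.36 in GFP- cells. Olfr884 differed by -3.95 (SE 0.19), and had the smallest p of the lower genes in both exposures. In vehicle replicates 1 to 4 the log2 signal of Olfr18 was 5.45, 4.99, 4.13 and 4.56 in GFP+ and 9.53, 9.90, 9.53 and 9.32 in GFP- cells. The 2-octanone pools gave 4.29, 5.48, 5.35 and 6.81 in GFP+ and 9.48, 9.44, 9.39 and 8.40 in GFP- cells. Olfr18 was not above the array's background on any vehicle GFP+ array, so its vehicle means of 9.57 in GFP- and 4.78 in GFP+ cells give at least 16.4-fold lower signal in GFP+ cells (limma adjusted p = 3.33e-07). For Olfr877, also at background on the vehicle GFP+ arrays, the vehicle means of 8.07 and 4.69 give at least 5.81-fold lower signal (limma adjusted p = 1.59e-05). Such a bound sets the mean of the bright fraction against the mean, over the dim fraction's arrays, of the background level or the probe set's own signal, whichever was higher.

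Further genes were picked out by the smallest p within each exposure, a rule that also picked several of those with the largest differences. The vehicle pools gave Olfr860 a signal of 10.07, 10.11, 10.10 and 9.89 in GFP+ and 7.48, 7.56, 7.71 and 7.26 in GFP- cells. With 2-octanone the values were 10.39, 10.02, 9.75 and 9.92 in GFP+ and 8.39, 7.55, 7.70 and 7.30 in GFP- cells. The GFP+ arrays of Olfr860 spanned less than 1 log2 unit over 8 pools, and its difference was 2.42 (SE 0.14; limma adjusted p = 1.89e-09). Olfr934, Olfr965 and Olfr979 were also named in this way, with 2.52 (SE 0.24), 2.61 (SE 0.25) and 2.12 (SE 0.21).

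A few of these receptors have known ligands. Olfr160, known as M72, responds to acetophenone. For Olfr160 the GFP+ values were 11.38, 11.15, 11.34 and 10.09 after vehicle and 11.51, 11.87, 11.60 and 10.48 after 2-octanone, replicates 1 to 4. Its GFP- values were 9.28, 9.54, 8.83 and 8.53 after vehicle and 9.66, 8.94, 8.67 and 7.42 after 2-octanone. It was higher in GFP+ cells without overlap, by 2.32 (SE 0.30; limma adjusted p = 1.19e-05). Olfr961 and Olfr913 have been reported to respond to eugenol. GFP+ cells had Olfr961 at 10.88, 10.62, 11.37 and 10.89 after vehicle and 11.04, 11.14, 11.42 and 10.75 after 2-octanone. In GFP- cells it stood at 9.03, 9.52, 9.76 and 8.39 after vehicle and 9.65, 9.07, 9.62 and 9.19 after 2-octanone. Olfr961 was higher in GFP+ cells by 1.74 (SE 0.18; limma adjusted p = 1.18e-06), and its fractions did not overlap. Olfr913 read 11.07, 11.72, 11.90 and 11.89 in GFP+ and 11.14, 11.26, 11.65 and 10.39 in GFP- cells of vehicle replicates 1 to 4. After 2-octanone it read 11.86, 11.92, 12.10 and 12.25 in GFP+ and 11.87, 10.98, 11.68 and 11.08 in GFP- cells. For Olfr913 the fractions overlapped and the difference was 0.58 (SE 0.18; limma adjusted p = 0.0253). Neither acetophenone nor eugenol is named in the labels. After filtered air alone the differences of Olfr160, Olfr961 and Olfr913 were 1.95, 1.76 and 0.54, of which the last was not called.

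The 128 genes form 2 runs along the chromosome, parted by 159 other protein-coding genes. The first run, from Olfr24 to Olfr18, had 34 genes with 12 called higher, 11 lower and 11 not called, and a median sort difference of 0.01 (range -4.24 to 3.57). The second, from Olfr160 to Olfr986, had 94 with 62 higher, 17 lower and 15 not called, and a median of 1.01 (range -5.02 to 3.30). Without both replicate 4 pools the first run had 12 higher and 12 lower with a median of -0.04, and the second 58 higher and 18 lower with a median of 0.83; with any 1 pool left out the first run's median lay between -0.08 and 0.12, on both sides of 0. The second run's median was the higher one within each of the 8 pools. In the first run it was -0.13, 0.35, -0.19 and 0.39 in vehicle replicates 1 to 4 and -0.72, 0.36, -0.09 and 0.52 in 2-octanone replicates 1 to 4. In the second run it was 0.83, 0.84, 1.05 and 1.52, then 0.41, 1.26, 0.88 and 1.18. Replicate 1 of 2-octanone was lowest and a replicate 4 pool highest in both runs.

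**Figure D3:**
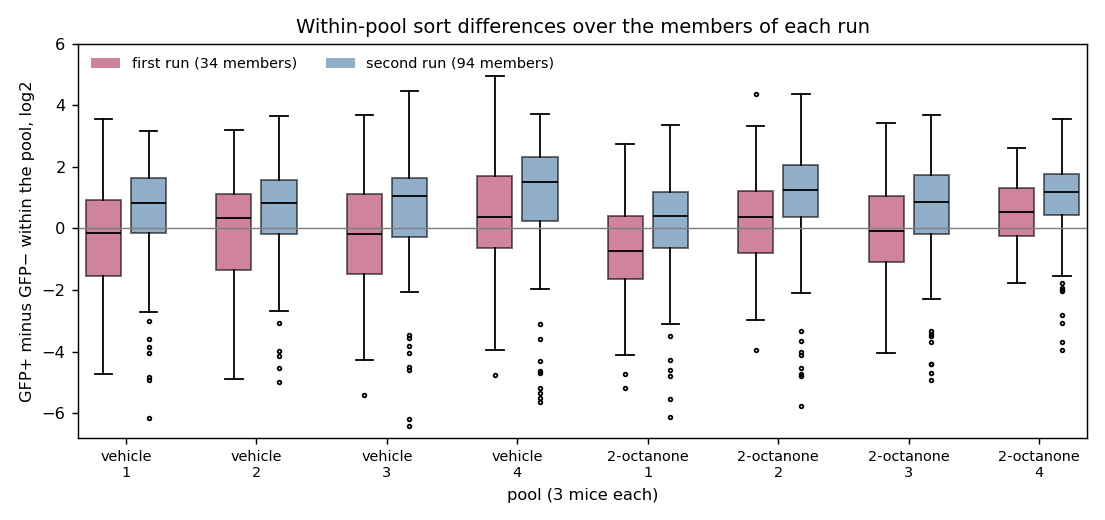
Distribution over genes of the GFP+ minus GFP- difference in log2 signal (vertical axis) within each of the 8 pools (horizontal axis), for the first run (34 genes, red) and the second run (94 genes, blue); boxes span the quartiles, black lines are medians, whiskers reach the furthest value within 1.5 box lengths, and points lie beyond. The second run's median is above the first run's in every pool, between 0.41 and 1.52 against -0.72 and 0.52.

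Direction was mixed among neighbours. Of 126 pairs of direct neighbours, 45 were both called higher, 6 both lower and 26 in opposite directions, and without both replicate 4 pools these were 37, 6 and 29. Taken singly, 57.8% of the 128 genes were called higher and 21.9% lower. Whether neighbours match more or less often than these shares alone would give was not tested. The longest unbroken stretches called higher lay in the second run, 8 genes from Olfr975 to Olfr983, 7 from Olfr961 to Olfr968, and 6 each from Olfr887 to Olfr893 and from Olfr917 to Olfr922. The longest stretches called lower were 4 genes, from Olfr868 to Olfr871 in the first run, and 3, from Olfr938 to Olfr943 in the second. In the lower stretch Olfr869 differed by -3.32 (SE 0.34), Olfr870 by -1.98 (SE 0.18), Olfr868 by -1.52 (SE 0.27) and Olfr871 by -0.66 (SE 0.16). Neighbours in opposite directions included Olfr250 and Olfr251, both of family MOR170, with -3.62 (SE 0.33) and 1.90 (SE 0.29). They also included Olfr875 and Olfr876 of family MOR161. In vehicle replicates 1 to 4 the log2 signal of Olfr875 was 6.75, 7.43, 7.58 and 6.38 in GFP+ and 9.76, 8.99, 9.21 and 9.49 in GFP- cells. The 2-octanone pools gave 6.84, 7.92, 7.49 and 6.84 in GFP+ and 9.50, 9.28, 9.77 and 8.84 in GFP- cells. GFP+ arrays were the low ones for Olfr875. The vehicle pools gave Olfr876 a signal of 12.11, 11.79, 12.61 and 11.92 in GFP+ and 9.93, 10.49, 9.93 and 9.17 in GFP- cells. With 2-octanone the values were 11.54, 12.37, 12.78 and 12.12 in GFP+ and 10.51, 10.80, 10.60 and 10.14 in GFP- cells. Olfr875 differed by -2.20 (SE 0.21) and Olfr876 by 1.96 (SE 0.20), each without overlap between fractions, and their 300-base windows were 84.2% identical.

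Families differed in their make-up. All 5 genes of MOR223 (Olfr978 to Olfr982, direct neighbours) were higher in GFP+ cells, by 1.02 to 3.30. In MOR224, 9 of 10 were higher and 1, Olfr960 at 0.70, was not called, with a family range of 0.70 to 2.53. In MOR165, 6 of 7 were higher and Olfr907, at 0.12, was not called. MOR145 had none higher, 3 lower (Olfr18, Olfr869 and Olfr868) and 3 not called, and a median of -0.88. MOR171, with 35 genes the most numerous, had 20 higher, 10 lower and 5 not called, and spanned -4.95 to 2.64. MOR162 had 7 higher and 1 lower of 10, MOR161 4 higher and 2 lower of 6, MOR170 5 higher and 1 lower of 9, and MOR146 2 higher and 1 lower of 5. The 20 families of fewer than 5 genes held 35 in all, 16 higher and 10 lower. Without both replicate 4 pools no family's count of genes called higher or lower moved by more than 1 in these 9, and the smaller families had 16 higher and 12 lower. These splits are counts with no test, and genes of a family lie close together on the chromosome, so family and place cannot be told apart here.

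**Figure D4:**
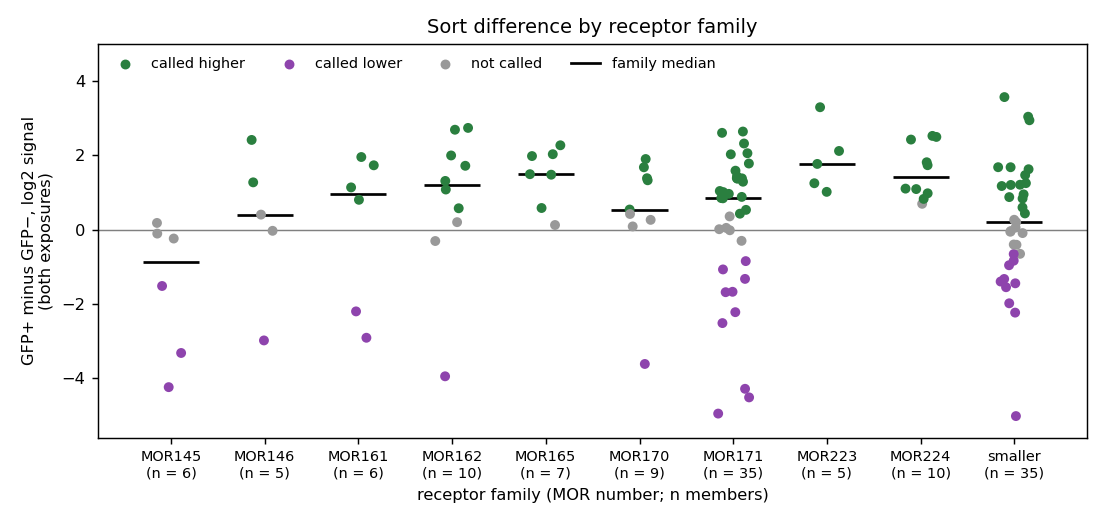
GFP+ minus GFP- difference in log2 signal over both exposures (vertical axis) of each receptor, by MOR family (horizontal axis, number of genes in brackets), with genes called higher by limma in green, called lower in purple and not called in grey, and black bars for family medians. MOR165, MOR223 and MOR224 have no gene called lower, and MOR145 none called higher.

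Windows were found for 107 of the 128 genes, 108 windows in all. The Ebf core CCCNNGGG, searched on both strands, was in 2 of 108 (1.85%), in 3.06% of the windows of other receptors and in 13.7% of all windows of that length. The homeodomain core TAATTA, which reads the same on both strands, was in 27 (25.0%), in 17.5% of other receptors' windows and in 5.29% of all. It was in 19.4% of windows of genes called higher, 21.7% of those called lower and 43.5% of those not called. ATG stood at the annotated start in 68 of 108 windows here, 605 of 816 of other receptors and 1915 of 32851 of all. The shares over all windows thus come from windows placed unlike those of the receptors. The 2 motifs share no stretch of letters, and a match is a description of these letters only. Over 5671 pairs of windows the median identity was 53.9%, and 28 pairs were over 70%. Of these, 9 pairs were both called higher, none both lower and 6 in opposite directions. The most alike pair was Olfr924 and Olfr926 (93.7%), with differences of 1.38 (SE 0.30) and 1.04 (SE 0.23), and the next was Olfr968 and Olfr972, printed above.

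The receptors' signalling genes were examined beside them. Of 18 transduction and transport genes, 10 were higher in GFP+ cells and none lower, where 16.7% of all tested probe sets were higher. Among them Pde1c, a calcium-dependent phosphodiesterase of the cilia, was at 0.72, Ano2, the calcium-gated chloride channel, at 0.53 and Adcy3, the cyclase, at 0.37. Rtp2, a receptor transport protein, was at 0.45 and Reep1, likewise in receptor transport, at 0.43. The G protein subunit Gnal (0.14) and Omp, the mature neuron marker (0.15), were not called. Of 13 genes of receptor choice, none was higher and 2 lower, a share close to the 14.0% of all tested probe sets called lower. These were Lbr, a nuclear envelope protein, at -1.85, and Cbx5, a heterochromatin protein, at -0.34. The fractions also differed in signal of neutrophil and immature neuron genes, and the part of such cells in these 2 differences was not tested. Lhx2 (-0.05), its partner Ldb1 (-0.02), Ebf1 (0.20) and Ebf2 (0.25) were not called.

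2-octanone changed none of the 128 receptors past the test. Olfr77, left out of the 128, was at 1.725 (SE 0.416) in GFP+ cells and was not called either. In GFP+ cells limma called 0 of the 128 genes (0.0% of all tested probe sets), with the smallest adjusted p at 1.0. At an unadjusted p under 0.05 there were 7, 4 higher and 3 lower, where 3.16% of all tested probe sets were under that level. The median difference was 0.03 and the range -0.94 to 0.87, and for 69 of the 128 genes the 95% interval lay within 1 log2 unit of 0. In GFP- cells 0 of the 128 were called (0.00511% of all tested probe sets). Unadjusted, 1 was higher and 3 lower (2.44% of all), the median was 0.02, and 67 intervals lay within 1 log2 unit of 0. The change of the GFP+/GFP- ratio, which compares the sort difference between the exposures, called 0 genes (0.0%), with 2 at an unadjusted p under 0.05 (2.38% of all), a median of -0.06 and 23 intervals within 1 log2 unit of 0. The median half-width of the interval was 0.73 within a fraction and 1.03 for the ratio. The sign of these medians depended on single pools: with 1 pool left out the median ran from -0.08 (without vehicle replicate 4) to 0.11 (without vehicle replicate 3) in GFP+ cells, and it was -0.21 in GFP- cells without vehicle replicate 4 and 0.19 for the ratio without 2-octanone replicate 1. No gene of the 128 was called with any of these pools left out. Without both replicate 4 pools limma again called 0 of the 128 in each of the 3 comparisons, and 8, 9 and 7 were at an unadjusted p under 0.05. Of all 19572 tested probe sets, 862, 803 and 677 were then under that level.

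The gene with the largest gain in GFP+ cells was Olfr847, of the first run. For Olfr847 the GFP+ values were 9.34, 8.88, 8.45 and 8.94 after vehicle and 9.98, 10.57, 9.38 and 9.14 after 2-octanone, replicates 1 to 4. Its GFP- values were 10.60, 11.13, 11.29 and 10.77 after vehicle and 10.82, 10.81, 11.07 and 9.75 after 2-octanone. In GFP+ cells 3 of the 4 2-octanone arrays lay above all vehicle arrays and replicate 4 did not, and in GFP- cells the ranges overlapped. The difference in GFP+ cells was 0.87 (SE 0.32, 95% interval 0.20 to 1.54; unadjusted p = 0.0145, limma adjusted p = 1.0) and the change of the ratio 1.20 (SE 0.45; unadjusted p = 0.0163, limma adjusted p = 1.0). In both exposures its level stayed below that of GFP- cells on average. GFP+ cells had Olfr857 at 5.78, 6.30, 5.77 and 6.40 after vehicle and 5.99, 7.01, 7.00 and 7.60 after 2-octanone. In GFP- cells it stood at 8.35, 9.45, 10.06 and 9.52 after vehicle and 10.10, 9.45, 9.49 and 9.31 after 2-octanone. For Olfr857 the GFP+ arrays of the exposures overlapped, with a difference of 0.84 (SE 0.35; unadjusted p = 0.0270, limma adjusted p = 1.0). The other genes at that level were Olfr917 (0.50, and 0.31 without 2-octanone replicate 1) and Olfr891 (0.73), neither above background on any of the 16 arrays.

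Among GFP+ differences below 0, Olfr894 had the smallest p. Olfr894 read 8.14, 8.95, 8.71 and 8.47 in GFP+ and 8.25, 8.43, 8.60 and 6.99 in GFP- cells of vehicle replicates 1 to 4. After 2-octanone it read 7.01, 8.29, 8.0 and 7.66 in GFP+ and 8.20, 7.88, 8.31 and 7.88 in GFP- cells. For Olfr894 the GFP+ difference was -0.83 (SE 0.32; unadjusted p = 0.0194, limma adjusted p = 1.0), with overlap, and the GFP- difference 0.004. In vehicle replicates 1 to 4 the log2 signal of Olfr902 was 8.91, 8.93, 10.08 and 8.54 in GFP+ and 9.64, 9.25, 10.11 and 9.38 in GFP- cells. The 2-octanone pools gave 6.80, 9.17, 8.51 and 8.48 in GFP+ and 8.68, 8.75, 8.74 and 8.12 in GFP- cells. Olfr902 was the only gene of the 128 under an unadjusted p of 0.05 in both fractions, at -0.88 (SE 0.41) in GFP+ and -1.02 (SE 0.41) in GFP- cells, with limma adjusted p = 1.0 in each. Its GFP+ value rested on 2-octanone replicate 1 and vehicle replicate 3: it was -0.40 without the first and -0.56 without the other. Of all 128 genes, groups of 4 did not overlap between exposures in 1 gene in GFP+ cells, Olfr938 (0.33, unadjusted p = 0.166), and in 1 in GFP- cells, Olfr902, where 1.79% and 1.82% of all tested probe sets did not overlap.

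In the ratio, Olfr832 had the smallest p. The vehicle pools gave Olfr832 a signal of 4.67, 4.22, 4.07 and 4.29 in GFP+ and 6.61, 6.30, 5.86 and 6.02 in GFP- cells. With 2-octanone the values were 4.72, 4.25, 4.87 and 4.32 in GFP+ and 5.73, 5.90, 5.24 and 4.38 in GFP- cells. It was not above background on any GFP+ array, and the change of its ratio, 1.12 (SE 0.39; unadjusted p = 0.0108, limma adjusted p = 1.0), came with a GFP- difference of -0.89 that was -0.58 without 2-octanone replicate 4. For Olfr18 no ratio change is given, because 7 of its 8 GFP+ arrays were not above background. Olfr855 had the change furthest below 0, -1.20 (SE 0.87; unadjusted p = 0.184). For Olfr855 the GFP+ values were 11.06, 10.88, 10.04 and 8.77 after vehicle and 9.21, 9.77, 8.94 and 9.09 after 2-octanone, replicates 1 to 4. Its GFP- values were 10.61, 10.17, 10.03 and 7.70 after vehicle and 10.83, 10.69, 8.85 and 9.20 after 2-octanone. Replicate 4 was the lowest array of both vehicle groups of Olfr855, and the exposures overlapped in each fraction. For the receptors with known ligands the GFP+ differences with 2-octanone were 0.38 (SE 0.42) for Olfr160, 0.15 (SE 0.26) for Olfr961 and 0.39 (SE 0.26) for Olfr913, none past the test. No gene of the lists for transduction, receptor choice or cell types was called for 2-octanone either.

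**Figure D5:**
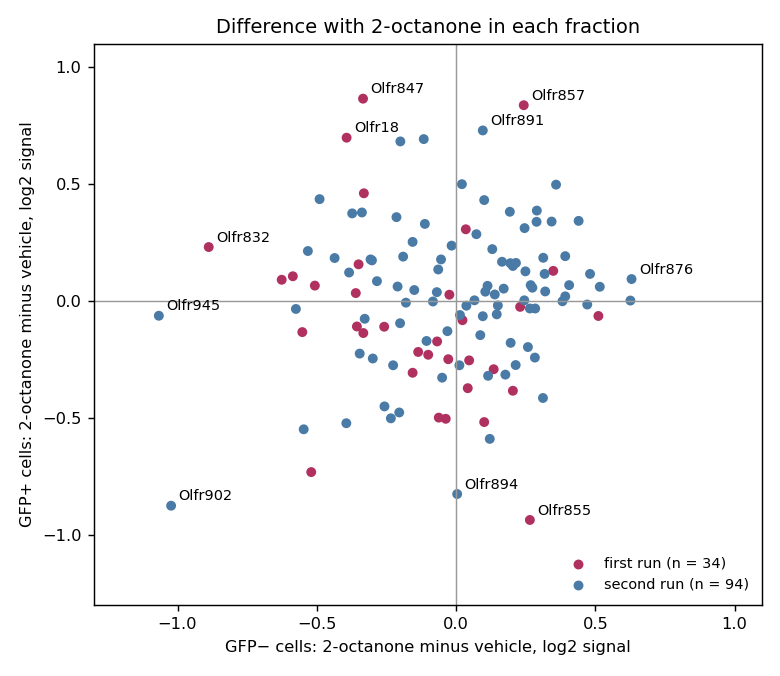
Difference between 2-octanone and vehicle in log2 signal in GFP- cells (horizontal axis) and GFP+ cells (vertical axis), 1 point for each of the 128 receptors, first run in red and second run in blue. Each fraction has 4 pools per exposure; the points lie between -1.07 and 0.63 horizontally and -0.94 and 0.87 vertically, and limma called none of the 128 in either fraction.

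Levels varied widely among the genes, and levels of different probe sets are not set against each other here because probes differ in how well they bind. The mean over the 16 arrays ran from 4.02 to 12.91, with a median of 8.81. By the mean of 23 background probe sets on each array (5.40 to 5.61), 105 of the 128 genes were above background on all 16 arrays and 5, Olfr834, Olfr862, Olfr891, Olfr917 and Olfr936, on none. Of these 5, Olfr891 (0.54), Olfr917 (0.44) and Olfr936 (0.43) are among the 74 called higher in the sort, with limma adjusted p = 0.0497, 0.0229 and 0.0274, although both fractions were at background. For Olfr834, named by rule as having the lowest mean GFP+ signal, the highest of 16 values was 4.70. At the other end by that rule was Olfr835. GFP+ cells had Olfr835 at 13.46, 13.38, 13.95 and 13.37 after vehicle and 12.92, 13.29, 13.39 and 13.38 after 2-octanone. In GFP- cells it stood at 12.15, 12.12, 12.69 and 11.63 after vehicle and 12.66, 12.35, 12.30 and 11.83 after 2-octanone. The fractions of Olfr835 did not overlap, and its difference was 1.18 (SE 0.15; limma adjusted p = 1.6e-05).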

How the data were processed

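RNA of sorted cells was hybridised to Clariom S mouse arrays, 16 arrays of 8 pools. The deposited table holds 28846 probe sets with values from 2.13 to 18.99. That range is typical of log2 signals, so the authors' values were taken as log2 and used as deposited. The log base and the normalisation are not given in the sources used here. Per the submitters' processing notes, Affymetrix Expression Console made the values.

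Controls and unnamed probe sets (9274) were left out. The other 19572 were fitted with limma 3.58.1 in R 4.3.3 (lmFit, eBayes) on the means of the 4 groups of 4 arrays, with 12 residual and 4.19 prior degrees of freedom. Tests were two-sided, with Benjamini-Hochberg adjustment over all 19572 and calls at an adjusted p under 0.05. The fits were tested on simulated data, with arrays drawn independently and no spread shared within a pool. Of 100 changes of 1 log2 unit, 91 were recovered for the sort over both exposures. For 2-octanone 71 were recovered in GFP+ cells, 71 in GFP- cells and 39 for the ratio. Of 100 changes of 2 log2 units the ratio recovered 90. The number of arrays limits the precision.

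Members and lists were chosen with earlier results of these data known. Named members are the 8 called with the largest sort difference in each direction and one sign in all pools, the 5 with the smallest p in each direction of the other comparisons, and those highest and lowest in GFP+ cells. The genes with known ligands, the neighbour pairs and the printed windows were chosen after their values were seen. A planned choice of pairs by protein identity was not applied, since no protein table was used here, and families are the MOR names in RefSeq synonyms. A run ends where over 10 other protein-coding genes intervene. Background was the mean of 23 background probe sets on each array.

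The fractions of a pool come from the same mice, so a pool pairs them. Deviations from the group means correlated between the fractions of a pool with r of 0.264, -0.005, 0.325 and 0.461 in 2-octanone replicates 1 to 4 and 0.086, 0.221, 0.301 and 0.442 in vehicle replicates 1 to 4. Between exposures the same replicate number gave 0.175 to 0.435 in GFP+ and -0.062 to 0.517 in GFP- cells.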

Additional observations from a re-analysis of the deposited data

Results flagged for a closer look

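Of 164 groups of 4 arrays, 4 for each of 41 named receptors, 13 held an array far from the other 3 by Dixon's test, which sets the gap to the nearest array against the group's whole range. Chance alone flags about 1 group in 20. Of these 13 arrays, 8 belonged to replicate 4 pools.

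In vehicle replicate 4, 6 values were low. Olfr849 read 12.21 in GFP+ cells (others 13.37 to 13.43) and 7.23 in GFP- cells (9.75 to 10.16). Olfr854 read 8.60 (10.12 to 10.15) and Olfr901 6.59 (8.27 to 8.44), both in GFP+ cells. In GFP- cells Olfr867 read 9.30 (10.43 to 10.66) and Olfr970 6.79 (8.39 to 8.64).

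In GFP- cells of 2-octanone replicate 4, Olfr18 read 8.40 (9.39 to 9.48) and Olfr902 8.12 (8.68 to 8.75). In GFP- cells of 2-octanone replicate 1 the values were high: Olfr869 read 10.43 (9.83 to 9.90) and Olfr981 8.04 (6.31 to 6.58).

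In vehicle GFP+ cells Olfr835 was high in replicate 3, at 13.95 (13.37 to 13.46), and Olfr878 low in replicate 3, at 6.31 (7.36 to 7.48). Olfr917, at background on all arrays, read 4.85 in replicate 1 (4.32 to 4.39).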

How the results depend on the processing

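Every total count of called receptors stayed within 1.5 times its value under each alternative run. Counted by direction, receptors called higher after 2-octanone went from 52 to 33 without 2-octanone replicate 2. In the same settings no member named by rule reversed or crossed the threshold in the comparison that named it. Other receptors given in the text were not followed singly. Of the 102 sort calls over both exposures, 94 to 99 were kept with any pool left out and 97 under quantile normalisation. The sort called 102 of 128 over both exposures, 94 to 100 with any pool left out and 81 to 108 under the other settings. The lowest came from leaving out dim probe sets, which removed 21 of the called receptors from the test. After vehicle alone the 84 calls became 73 to 87 with a pool left out and 71 to 103 otherwise. After 2-octanone the 73 became 53 (without 2-octanone replicate 2) to 81, and 61 to 96 otherwise. With the pool as a replicate block the 3 sort counts were 104, 94 and 87, and the ratio had no call. Within a fraction the exposures share no pool, so there the block was the replicate number, which joins different mice. It gave no call on 2-octanone either. For 2-octanone in GFP+ cells, in GFP- cells and for the ratio the counts were 0 under every setting. With these blocks 19, 18 and 8 receptors were at an unadjusted p under 0.05, in place of 7, 4 and 2. Of all 19572 probe sets, 1044, 787 and 792 were under that level with the blocks, in place of 618, 477 and 465. Leaving out both replicate 4 pools, chosen after seeing the data, gave 100, 82 and 79 sort calls. Among uncalled 2-octanone values, Olfr957 in GFP+ cells (0.69) was 0.31 without 2-octanone replicate 4, and Olfr945 in GFP- cells (-1.07) was -0.60 without it. Some GFP+ arrays of Olfr957 were at background. Quantile normalisation turned the sign of 3 uncalled sort differences and median centring of 7. What depth limits here is signal over background: 23 of 128 receptors were at background on at least 1 array.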
